A study of Homo sapiens with 17 samples.

Results

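The 10 mM libraries of an acetaldehyde experiment in BEAS-2B cells fall into a set of 3 (libraries 2, 3 and 4) and a set of 2 (libraries 5 and 6), 5 of the 17 libraries of the series. The sets are named by title number and were chosen by their measured expression, with CDKN1A, MDM2 and BTG2 far higher in libraries 2 to 4. Every gene's difference between these 2 sets is therefore given as a description, without a test. BEAS-2B cells are an immortalised human line from bronchial epithelium, labelled wild type, and all cells were kept in BEGM, a serum-free bronchial epithelial medium. The series holds 6 control libraries at 0 mM, 6 at 10 mM and 5 at 16 mM acetaldehyde, all after 24 h, with no other agent or allele. Library 1 of the 10 mM group is left out because its expression stands apart from every other library. The labels name no batch, date or culture, and nothing in them separates libraries 2 to 4 from 5 and 6. Whether libraries of 1 dose came from separate cultures is not stated, so every p-value below measures only the spread between these libraries, which may be technical.

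Acetaldehyde is a reactive aldehyde that binds DNA and protein. The transcription factor p53 is stabilised after DNA damage and induces genes that halt the cell cycle, repair DNA or promote apoptosis, together with MDM2, the ubiquitin ligase that returns p53 to a low level. Other programmes that differed between the sets are interferon-induced genes, which carry antiviral proteins and are switched on through factors such as IRF9, immediate-early genes such as FOS and EGR1, which respond within minutes to growth factor and stress signals, and the NRF2 and heat shock programmes, which respond to reactive chemicals and unfolded protein.

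Promoter stretches are shown for some of the genes that carry the finding, printed because they held a match. The matches are to the elements through which these programmes are known to act. For the interferon-induced genes the element searched was the core of the interferon-stimulated response element, which is GAAA, then any 2 bases, then GAAA, on either strand, printed here in capitals. Both strands were searched for every element named here. The sequences are 120 bases within 250 bases before to 50 after the start site, from RefSeq on GRCh38.p14, written along the gene: IFI27 at chr14:94110579-94110698 (plus strand), IFI6 at chr1:27672253-27672372 (minus strand) and IFI44L at chr1:78620274-78620393 (plus strand).
IFI27: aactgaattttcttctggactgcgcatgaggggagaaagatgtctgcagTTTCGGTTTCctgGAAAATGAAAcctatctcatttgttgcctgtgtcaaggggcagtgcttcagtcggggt
IFI6: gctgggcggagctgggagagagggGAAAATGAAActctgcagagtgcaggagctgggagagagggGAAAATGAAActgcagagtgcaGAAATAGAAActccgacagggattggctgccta
IFI44L: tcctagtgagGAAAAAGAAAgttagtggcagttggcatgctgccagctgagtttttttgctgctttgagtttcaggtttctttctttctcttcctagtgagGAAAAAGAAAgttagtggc
IFI27 held 2 matches, IFI6 held 3 and IFI44L held 2. Of 21 interferon genes with a promoter in the RefSeq table, 14 (66.7%) held the core, against 279 of 9390 described genes (2.97%).

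AEN, an exonuclease gene induced by p53, held a match to the p53 consensus element, of which a full site has a pair (capitals, chr15:88621220-88621339, plus strand). EGR1 held 2 CArG boxes, the element bound by serum response factor (capitals, chr5:138465330-138465449, plus strand). TXNRD1, the thioredoxin reductase gene, held the core of the antioxidant response element bound by NRF2, TGACNNNGC on either strand (capitals, chr12:104286874-104286993, plus strand).
AEN: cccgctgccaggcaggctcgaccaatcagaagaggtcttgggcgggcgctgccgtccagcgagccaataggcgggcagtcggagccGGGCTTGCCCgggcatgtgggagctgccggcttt
EGR1: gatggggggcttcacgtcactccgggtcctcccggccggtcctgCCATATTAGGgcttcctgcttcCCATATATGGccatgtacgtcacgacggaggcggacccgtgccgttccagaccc
TXNRD1: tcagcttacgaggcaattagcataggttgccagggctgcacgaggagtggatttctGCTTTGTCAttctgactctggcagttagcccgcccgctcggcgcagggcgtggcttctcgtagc
The p53 consensus was found in 5 of 30 p53 genes (16.7%) against 487 of 9390 described genes (5.19%), and the antioxidant core in 6 of 15 NRF2 targets (40%) against 1389 (14.8%). The CArG box was found in 1 of 15 immediate-early genes (6.67%) against 89 (0.948%). A match describes these windows only. CDKN1A, MDM2, BTG2, FDXR and ACER2 had no p53 consensus match in the window, while DDB2 held 2 that are not printed. FOS, FOSB, JUN and NR4A1 had no CArG box there, and SRXN1 and OSGIN1 had no antioxidant core. MX2, OAS2, HMOX1 and PHLDA3 were not among the genes matched to a promoter.

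Library measures other than single genes differed little. Total estimated counts lay between 16622786 and 17125516 in the 5 libraries and between 15952673 and 18809242 in all 17. At least 10 counts were found for 12429 to 12462 genes in libraries 2 to 4 and 12208 to 12212 genes in libraries 5 and 6. The 10 most abundant genes took 2.66% to 2.74% of the counts in libraries 2 to 4 and 3.20% to 3.31% in libraries 5 and 6, ranges that do not overlap. Their part in the results below was not tested. Log2 expression correlated across genes at r of 0.9955 to 0.9957 within libraries 2 to 4, at 0.9950 between libraries 5 and 6, and at 0.9844 to 0.9854 across the sets. Library 1 correlated at 0.866 to 0.883 with these 5. No library pair agreed within counting noise, so each was counted as a library of its own.

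Levels are given in FPKM, fragments scaled by transcript length and sequencing depth, and differences between sets are differences of mean log2(FPKM + 0.1), which understate the change of low genes. Of 16884 protein-coding genes, 11339 reached a mean of 1 FPKM over the 5 libraries and were described. A gene is called apart here when the sets differ by at least 1.5-fold and no library of the lower set reaches the lowest of the higher set. By that measure 624 genes (5.50%) were apart and higher in libraries 2 to 4, and 100 (0.882%) were apart and higher in libraries 5 and 6, 724 (6.39%) in all. At 2-fold these were 131 (1.16%) and 19 (0.168%). Without a size limit, 7724 genes (68.1%) had sets that did not overlap. The genes just inside and just outside the limit had log2 differences of 0.59 and 0.58 on the side of libraries 2 to 4, and of -0.59 and -0.58 on the other side. These counts rest on the values that defined the sets. The split depends on the scale: on TMM-scaled CPM, edgeR's depth-corrected counts, 437 were higher in libraries 2 to 4 and 163 in libraries 5 and 6, on TPM 896 and 70, and with each difference set against the median of all genes 437 and 152. The median gene differed by 0.08 on the log2 FPKM scale, -0.00 on TMM-scaled CPM and 0.17 on TPM.

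The same genes were then looked up in libraries that the choice of sets did not use. Control libraries 1 to 3 were set against 4 to 6, and 16 mM libraries 1 to 3 against 4 and 5. This cut follows number 3, the cut at 10 mM follows number 4, and no label ties the numbers across doses. The cut falls where expression divides. Control library 4 correlated at 0.9942 and 0.9934 with 5 and 6, and at 0.9718 to 0.9831 with 1 to 3. The division was less sharp for control library 1. It correlated at 0.9898 and 0.9902 with 2 and 3, which correlated at 0.9950 with each other, and at 0.9824 to 0.9868 with 4 to 6. At 16 mM library 4 correlated at 0.9943 with 5, and at 0.9774 to 0.9814 with 1 to 3. The shares below are therefore not blind to expression. In the 16 mM libraries, 597 of the 624 genes higher in 10 mM libraries 2 to 4 (95.7%) were also higher in libraries 1 to 3, and 399 (63.9%) were apart that way, where 11.1% of all genes were. The median of the 624 was 0.76 at 10 mM and 0.74 at 16 mM. In the control libraries 520 of them (83.3%) were higher in libraries 1 to 3 and 153 (24.5%) were apart that way, where 4.57% of all genes were, and their median was 0.37. Of the 100 genes higher in libraries 5 and 6, 79 had the same sign at 16 mM and 64 in control, with medians of -0.38 and -0.14 against -0.74 at 10 mM. Over all 11339 genes 72.7% had the same sign at 16 mM and 64.7% in control, and the differences correlated across genes at Pearson r of 0.621 and 0.356. Genes are not independent replicates, and no p is given.

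**Figure D1:**
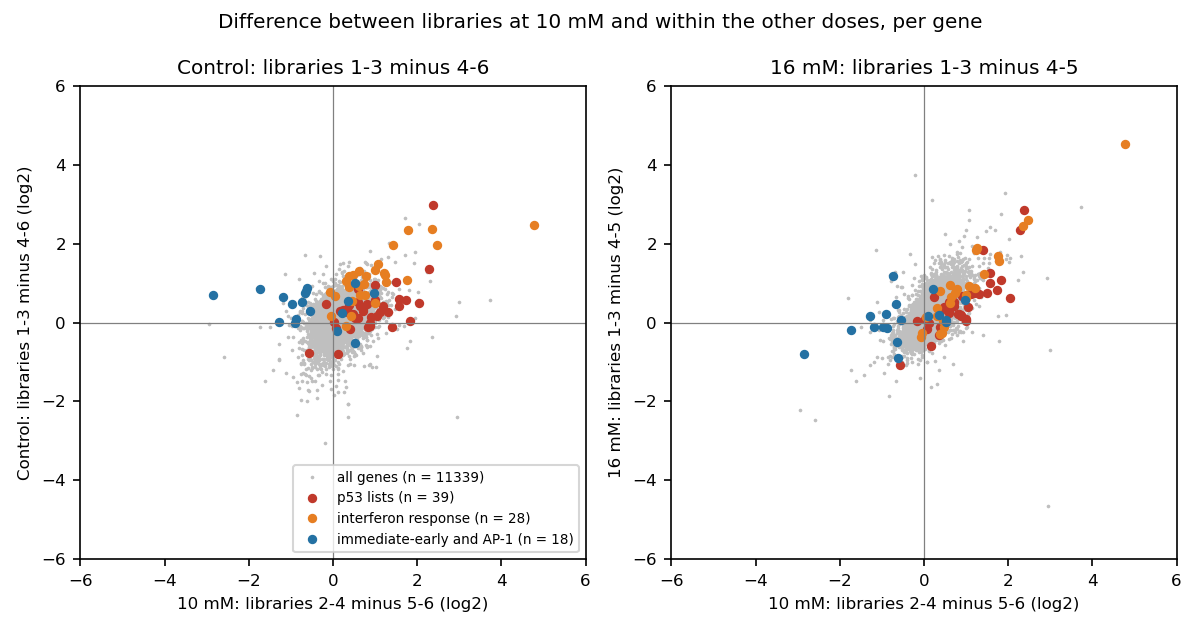
Each point is a gene; the horizontal axis is the log2 difference of 10 mM libraries 2 to 4 minus 5 and 6, the vertical axis the log2 difference of control libraries 1 to 3 minus 4 to 6 (left) or 16 mM libraries 1 to 3 minus 4 and 5 (right). Most interferon genes lie to the upper right in both panels, while most immediate-early genes lie to the left, above 0 in control and around 0 at 16 mM.

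The p53 target genes were mostly higher in libraries 2 to 4. Of 43 genes in 4 p53 lists, 42 were in the table and 39 were described, and 25 of these were apart and higher in libraries 2 to 4, with 0 higher in libraries 5 and 6, beside 5.50% and 0.882% of all genes. On TMM-scaled CPM the counts were 22 and 1. The median of the 39 was 0.80 between the 10 mM sets, beside 0.08 for all genes, 0.29 between the control sets and 0.40 between the 16 mM sets. EDA2R, SPATA18 and TP53AIP1 stayed under 1 FPKM. RNA of bulk cultures was measured, so fewer responding cells and less RNA per cell cannot be told apart. These lists, and the genes in them, were chosen with results of these data known.

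CDKN1A (chromosome 6, 36676463 to 36687332, GRCh38.p13) encodes p21, the inhibitor of cyclin-dependent kinases through which p53 halts the cell cycle. It stood at 293.1, 317 and 306 FPKM in libraries 2, 3 and 4 and at 94.6 and 88.7 FPKM in libraries 5 and 6. Libraries 2 to 4 were thus 3.33-fold higher, with no overlap. In control libraries 1 to 3 CDKN1A lay at 84.2 to 86.7 FPKM and in control libraries 4 to 6 at 56.4 to 57.9 FPKM. In 16 mM libraries 1 to 3 it lay at 157 to 165 FPKM and in 16 mM libraries 4 and 5 at 86.7 and 93.6 FPKM. At each dose the lower-numbered set was higher, and the gap was widest at 10 mM. CDKN1A was named for its gap at 10 mM, so that gap being the widest is no independent result. CDKN1A was 3.58-fold higher in 10 mM libraries 2 to 4 than in control libraries 1 to 3. In libraries 5 and 6 it was 1.61-fold higher than in control libraries 4 to 6. Each change of a 10 mM set over control given below uses these same control sets. The numbers do not match within these pairs, and no label gives the pairing. Across all 5, CDKN1A rose by 1.62 ± 0.31 on the log2 scale against control (estimate ± SE, n = 5 and 6, edgeR adjusted p = 0.00112), and at 16 mM by 0.91 ± 0.17 (n = 5 and 6, edgeR adjusted p = 0.000495). The test at 10 mM uses the 5 libraries whose values defined the sets, and library 1 was left out on its expression. CDKN1A, MDM2 and BTG2 were named from those values, so their p-values at 10 mM are no independent support. The edgeR test at 10 mM calls 47.2% of all genes, 23.1% as risen and 24.1% as fallen, and that at 16 mM calls 64.3%, 32.7% and 31.6%.

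MDM2 (chromosome 12, 68808149 to 68850686) stood at 59.9, 59.8 and 66.4 FPKM in libraries 2 to 4 and at 20.7 and 21.1 FPKM in libraries 5 and 6, a 2.97-fold difference without overlap. In 16 mM libraries it stood at 37.7, 34.3, 34.7, 18.4 and 16.8 FPKM, again with libraries 1 to 3 above 4 and 5. In the controls MDM2 lay between 13.6 and 21.1 FPKM. Against control it rose by 1.44 ± 0.28 at 10 mM (edgeR adjusted p = 0.00121). With library 1 included that call was lost (log2 change 1.22, edgeR adjusted p = 0.0988, the highest over all alternatives, the lowest being 3.65e-05).

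The other genes of the p53 circuit itself, which feed back on p53 or its signalling, followed MDM2. PPM1D, the phosphatase that dephosphorylates p53, stood at 19.9, 19.8 and 19.9 FPKM in libraries 2 to 4 and at 9.40 and 9.76 FPKM in libraries 5 and 6. In the controls PPM1D lay between 9.14 and 11.7 FPKM, so libraries 5 and 6 stayed within the control range. TP53INP1, a cofactor of p53 in stress, stood at 12.8 to 13.3 FPKM against 6.64 and 7.40 FPKM. PHLDA3, a repressor of AKT, stood at 37.0 to 38.0 FPKM against 17.2 and 17.5 FPKM. ZMAT3, an RNA-binding protein, stood at 8.69 to 9.90 FPKM against 4.35 and 4.90 FPKM. In all 4 genes libraries 2 to 4 lay above libraries 5 and 6 without overlap. CCNG1, encoding cyclin G1, and MDM4, the partner of MDM2, differed by 0.39 and 0.24 on the log2 scale and were not apart. Of the 8 core genes, 5 were apart and higher in libraries 2 to 4, beside 5.50% of all genes. Against control at 10 mM 6 of them rose, beside 23.1% of all genes. With library 1 included PPM1D, TP53INP1, ZMAT3 and CCNG1 lost that call, as MDM2 did (edgeR adjusted p = 0.0855, 0.342, 0.197 and 0.683). PPM1D and CCNG1 also lost it with the replicate number as a block (edgeR adjusted p = 0.0738 and 0.0564). PPM1D lost it as well without control library 4 or any of 10 mM libraries 2 to 4.

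Among 11 described genes by which p53 slows growth, 7 were apart and higher in libraries 2 to 4, beside 5.50% of all genes. BTG2 (chromosome 1, 203305519 to 203312369), an antiproliferative gene, stood at 34.4, 35.4 and 39.7 FPKM in libraries 2 to 4 and at 9.86 and 10.4 FPKM in libraries 5 and 6. For BTG2 the controls lay between 6.55 and 9.25 FPKM in all 6 libraries, without the order by number seen for CDKN1A, and 16 mM libraries 1 to 5 stood at 16.1, 14.2, 15.4, 7.31 and 6.98 FPKM. BTG2 was thus 4.59-fold above control in 10 mM libraries 2 to 4 and 1.32-fold in libraries 5 and 6. It rose by 1.71 ± 0.33 against control at 10 mM (edgeR adjusted p = 0.00101) and by 0.62 ± 0.19 at 16 mM (edgeR adjusted p = 0.0132). The call at 16 mM was lost with the replicate number as a block (log2 change 0.55, edgeR adjusted p = 0.0510, the highest over all alternatives, the lowest being 0.00208).

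SESN1, a sestrin that restrains mTOR complex 1, stood at 9.50 to 10.4 FPKM in libraries 2 to 4 and at 4.15 and 4.42 FPKM in libraries 5 and 6. All 5 lay above every control library, which reached at most 3.92 FPKM. PLK3, a stress-activated kinase, stood at 8.57 to 9.34 FPKM against 4.42 and 4.54 FPKM. Its difference of 0.98 was close to the 0.94 between the control sets. TP53I3, a quinone oxidoreductase, stood at 29.9 to 31.4 FPKM against 17.7 and 15.6 FPKM, with the controls between 22.98 and 29.65 FPKM. For TP53I3 libraries 5 and 6 therefore lay below the controls, and at 16 mM it fell by 0.87 on the log2 scale (SE 0.09, edgeR adjusted p = 2.72e-06). GDF15, a stress cytokine, stood at 4.23, 3.68 and 5.55 FPKM against 1.10 and 0.53 FPKM. The log2 difference of GDF15 was 2.38 at 10 mM, 2.98 in control and 2.84 at 16 mM, as large without acetaldehyde as with it, and it passed the test at neither dose (edgeR adjusted p = 0.826 and 0.298). With a term for the sets by number in the model, GDF15 fell at 16 mM by 1.13 on the log2 scale (edgeR adjusted p = 0.000312). SESN2, also a target of ATF4, was apart by 0.70. SFN, the 14-3-3 sigma gene, lay the other way at 60.6 to 68.2 FPKM against 92.5 and 95.3 FPKM, with a log2 difference of -0.57, and GADD45A (0.58) lay just outside the limit. CCNE1 and PLK2 differed by 0.03 and 0.12.

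Of 10 described p53 genes of apoptosis, 6 were apart and higher in libraries 2 to 4, beside 5.50% of all genes. BBC3, which encodes the BH3-only protein PUMA, stood at 13.5, 14.9 and 15.0 FPKM in libraries 2 to 4 and at 5.02 and 5.73 FPKM in libraries 5 and 6. The controls lay between 3.92 and 5.14 FPKM, and 16 mM libraries 1 to 3 at 8.24 to 10.0 FPKM and 4 and 5 at 2.52 and 2.33 FPKM. Thus BBC3 was 3.30-fold above control in 10 mM libraries 2 to 4 and 1.15-fold in libraries 5 and 6. It rose by 1.20 ± 0.27 against control at 10 mM (edgeR adjusted p = 0.00289) and did not pass at 16 mM (0.39 ± 0.32, edgeR adjusted p = 0.303), where its libraries lie on both sides of the controls.

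AEN, whose promoter is shown above, stood at 49.4, 55.6 and 56.9 FPKM in libraries 2 to 4 and at 18.3 and 19.7 FPKM in libraries 5 and 6. Its control sets also differed, at 22.8 to 26.7 FPKM and 11.8 to 12.7 FPKM. AEN was 2.14-fold higher in libraries 2 to 4 than in control libraries 1 to 3. In libraries 5 and 6 it was 1.55-fold higher than in control libraries 4 to 6. The death receptor genes differed less. FAS stood at 18.7 to 20.8 FPKM against 9.72 and 11.5 FPKM, and TNFRSF10B, the TRAIL receptor DR5, at 91.7 to 100.1 FPKM against 56.4 and 52.8 FPKM. FAS and its neighbour ACTA2 overlap in the deposited coordinates and whether counting used the strand is not stated, so reads of the 2 genes cannot be told apart. TRIAP1 (0.64) and BLOC1S2 (0.59) were apart as well. TNFRSF10A (0.37), BAX (0.35), PMAIP1 (0.16), which encodes the BH3-only protein NOXA, and PERP (0.07) were not. PMAIP1 had the opposite order at 16 mM, with 63.7 to 73.1 FPKM in libraries 1 to 3 and 105.9 and 99.3 FPKM in libraries 4 and 5.

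Of 10 described p53 genes of repair and metabolism, 7 were apart and higher in libraries 2 to 4, beside 5.50% of all genes. DDB2, the damage sensor of nucleotide excision repair, stood at 36.5, 37.1 and 40.5 FPKM in libraries 2 to 4 and at 12.9 and 12.8 FPKM in libraries 5 and 6. In the controls DDB2 lay at 29.9 to 36.1 FPKM in libraries 1 to 3 and at 21.04 to 23.89 FPKM in libraries 4 to 6. Libraries 2 to 4 were thus 1.13-fold above control libraries 1 to 3, while libraries 5 and 6 were at 0.578 of control libraries 4 to 6. DDB2 did not pass at 10 mM (-0.02 ± 0.28, edgeR adjusted p = 0.955) and fell by 0.79 on the log2 scale at 16 mM (SE 0.24, edgeR adjusted p = 0.0104).

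FDXR, the ferredoxin reductase of mitochondria, stood at 67.3, 68.4 and 71.1 FPKM against 28.1 and 27.7 FPKM, the latter within the control range of 25.9 to 35.2 FPKM. ACER2, an alkaline ceramidase, stood at 5.99, 5.92 and 6.81 FPKM against 1.3 and 1.58 FPKM, the latter again among the controls (1.01 to 2.04 FPKM). POLH, the polymerase that bypasses ultraviolet lesions, stood at 26.8 to 28.9 FPKM against 15.2 and 16.5 FPKM. For these 3 genes libraries 5 and 6 lay near control and libraries 2 to 4 well above it. RRM2B, the p53-induced subunit of ribonucleotide reductase, was at 30.6 to 33.2 FPKM against 17.83 and 20.98 FPKM, and RPS27L, a ribosomal protein paralogue, at 12.7 to 13.9 FPKM against 8.55 and 8.74 FPKM. TRIM22, which interferon also induces, stood at 17.5, 20.4 and 21.1 FPKM against 3.90 and 3.96 FPKM, a 5.01-fold difference that the control sets (1.35 on the log2 scale) and the 16 mM sets (2.35) also showed. XPC (0.52), ASCC3 (0.47) and TIGAR (0.36) were higher in libraries 2 to 4 but not apart. On the log2 scale the median p53 gene was 0.61 higher in libraries 2 to 4 than in control libraries 1 to 3. In libraries 5 and 6 it was 0.16 higher than in control libraries 4 to 6. Over all 5 libraries 23 of 40 tested p53 genes rose against control at 10 mM and 2 fell by edgeR's test, beside 23.1% and 24.1% of all genes. With library 1 included 9 of 39 rose and 1 fell, beside 5.63% and 6.75% of all genes in that fit. At 16 mM 22 of 39 rose and 7 fell, beside 32.7% and 31.6% of all genes.

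**Figure D2:**
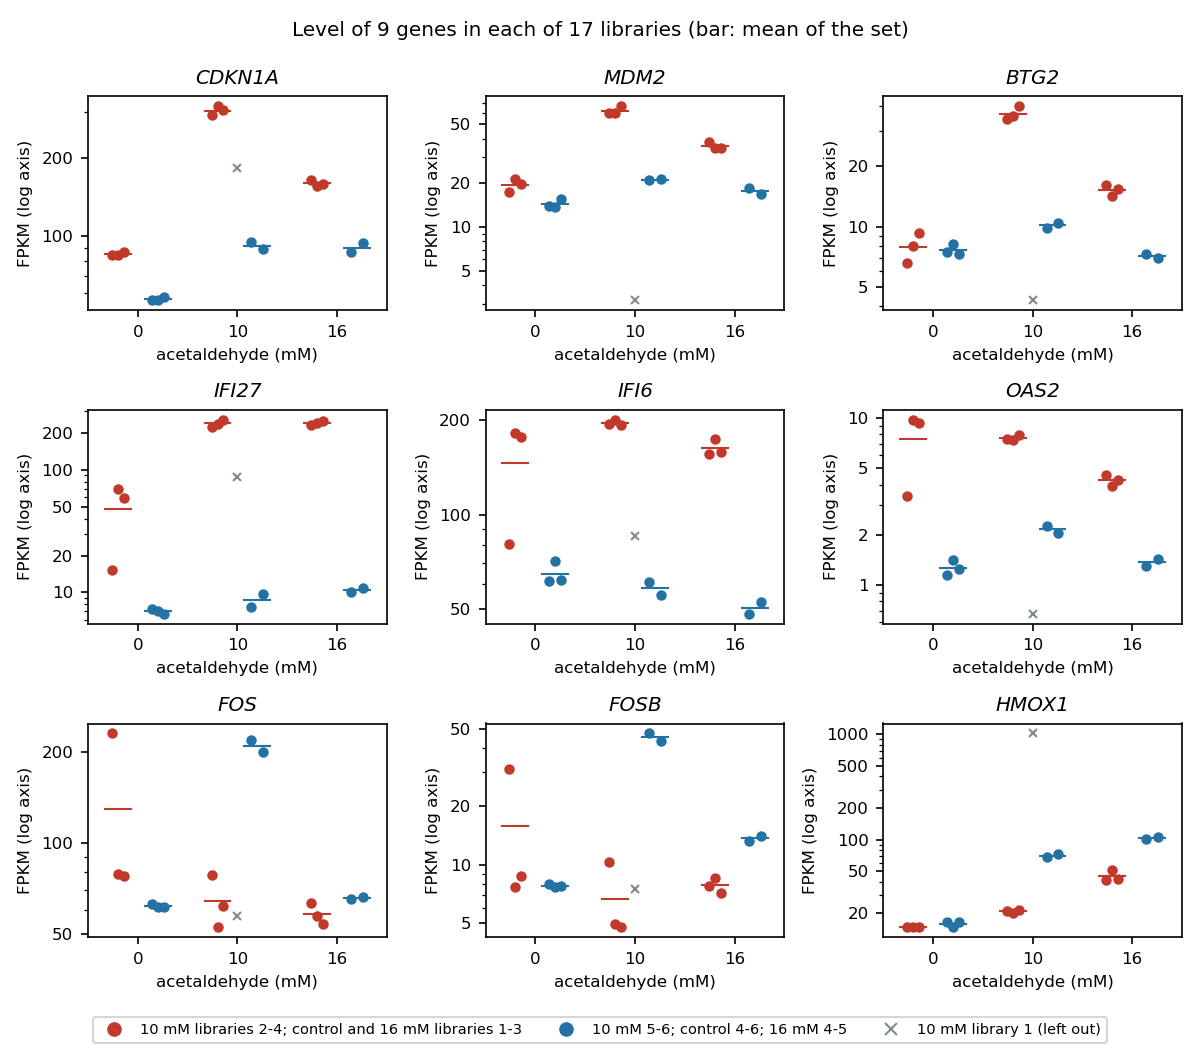
Each panel gives a gene's FPKM on a log axis in all 17 libraries, by acetaldehyde concentration; points are libraries, short bars are set means, and the cross is 10 mM library 1. CDKN1A, MDM2 and BTG2 separate most at 10 mM, the dose at which they were named for their gap. The interferon genes IFI27, IFI6 and OAS2 separate at every concentration including 0 mM, and FOS and FOSB are high in 10 mM libraries 5 and 6 and in control library 1.

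Interferon-induced genes were also higher in libraries 2 to 4, and here the control sets differed as much. Of 28 described genes 18 were apart and higher in libraries 2 to 4 and 0 in libraries 5 and 6, beside 5.50% and 0.882% of all genes, or 15 and 0 on TMM-scaled CPM. Their median was 0.75 at 10 mM, 1.07 in control, where 22 were apart the same way, and 0.78 at 16 mM, where 18 were. Of all genes 4.57% were apart that way in control and 11.1% at 16 mM. The median gene stood at -0.00 in libraries 2 to 4 against control libraries 1 to 3. In libraries 5 and 6 it stood at 0.12 against control libraries 4 to 6. Over the 5 libraries 4 of 28 rose and 1 fell at 10 mM, below the 23.1% and 24.1% of all genes. At 16 mM 3 rose and 8 fell, beside 32.7% and 31.6% of all genes. In this fit the share that fell at 16 mM (28.6%) lies near that of all genes, but the share depends on the model. With a term for the sets by number 16 of 28 fell (57.1%), beside 36.3% of all genes. With the replicate number as a block 15 fell (53.6%), beside 31.8% of all genes. In both of these fits 3 rose. With library 1 included edgeR called 0 of the 28 at 10 mM, beside 5.63% of all genes risen and 6.75% fallen, and 4 had an unadjusted p under 0.05.

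IFI27, a mitochondrial interferon-induced protein, had the largest difference of any gene with at least 5 FPKM. It stood at 223, 238 and 256 FPKM in libraries 2 to 4 and at 7.58 and 9.67 FPKM in libraries 5 and 6, a 27.7-fold difference. At 16 mM libraries 1 to 3 stood at 231 to 250.1 FPKM and libraries 4 and 5 at 10.0 and 10.8 FPKM. In control, libraries 1 to 3 stood at 15.1, 70.2 and 58.4 FPKM and libraries 4 to 6 at 6.69 to 7.39 FPKM. The lower-numbered libraries were higher at each dose, and within them IFI27 was 6.01-fold above control at 10 mM, against 1.21-fold in libraries 5 and 6. IFI27 rose against control by 2.35 ± 0.88 at 10 mM (edgeR adjusted p = 0.0421) and 2.34 ± 0.87 at 16 mM (edgeR adjusted p = 0.0311). Both calls were lost without any of control libraries 1, 4, 5 and 6, and without any of the treated libraries with high IFI27, with adjusted p from 0.0719 to 0.0931 at 10 mM and from 0.0573 to 0.0714 at 16 mM in these fits. Over all alternatives they lay between 0.000522 and 0.103 at 10 mM and between 0.000459 and 0.0714 at 16 mM.

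IFI6, a related protein, stood at 195, 201 and 194 FPKM against 61.2 and 55.6 FPKM, and its control libraries 2 and 3 were as high at 182 and 177 FPKM. OAS2, which makes the 2-5A activator of RNase L, stood at 7.49, 7.44 and 7.88 FPKM against 2.26 and 2.05 FPKM. MX2, a dynamin-like antiviral GTPase, stood at 3.18, 3.64 and 3.77 FPKM against 0.57 and 0.66 FPKM. For OAS2 and MX2 control libraries 2 and 3 (9.79 and 9.40, and 5.21 and 4.00 FPKM) were higher than any 10 mM library. IFI44L stood at 7.67, 7.47 and 7.91 FPKM against 1.36 and 1.26 FPKM. At 16 mM IFI44L lay at 1.76 to 2.18 FPKM and 0.22 to 0.27 FPKM in the 2 sets, so it kept its order between sets while it fell by 3.16 on the log2 scale against control (SE 0.65, edgeR adjusted p = 0.00097). Control library 1 lay below control libraries 2 and 3 in all 5 of these genes. IRF9 and STAT2, which act in interferon signalling, differed as well, by 1.22 and 0.45 on the log2 scale. IFIT5, ISG20 and SAMD9 (-0.07, -0.04 and 0.04) had sets that overlapped.

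**Figure D3:**
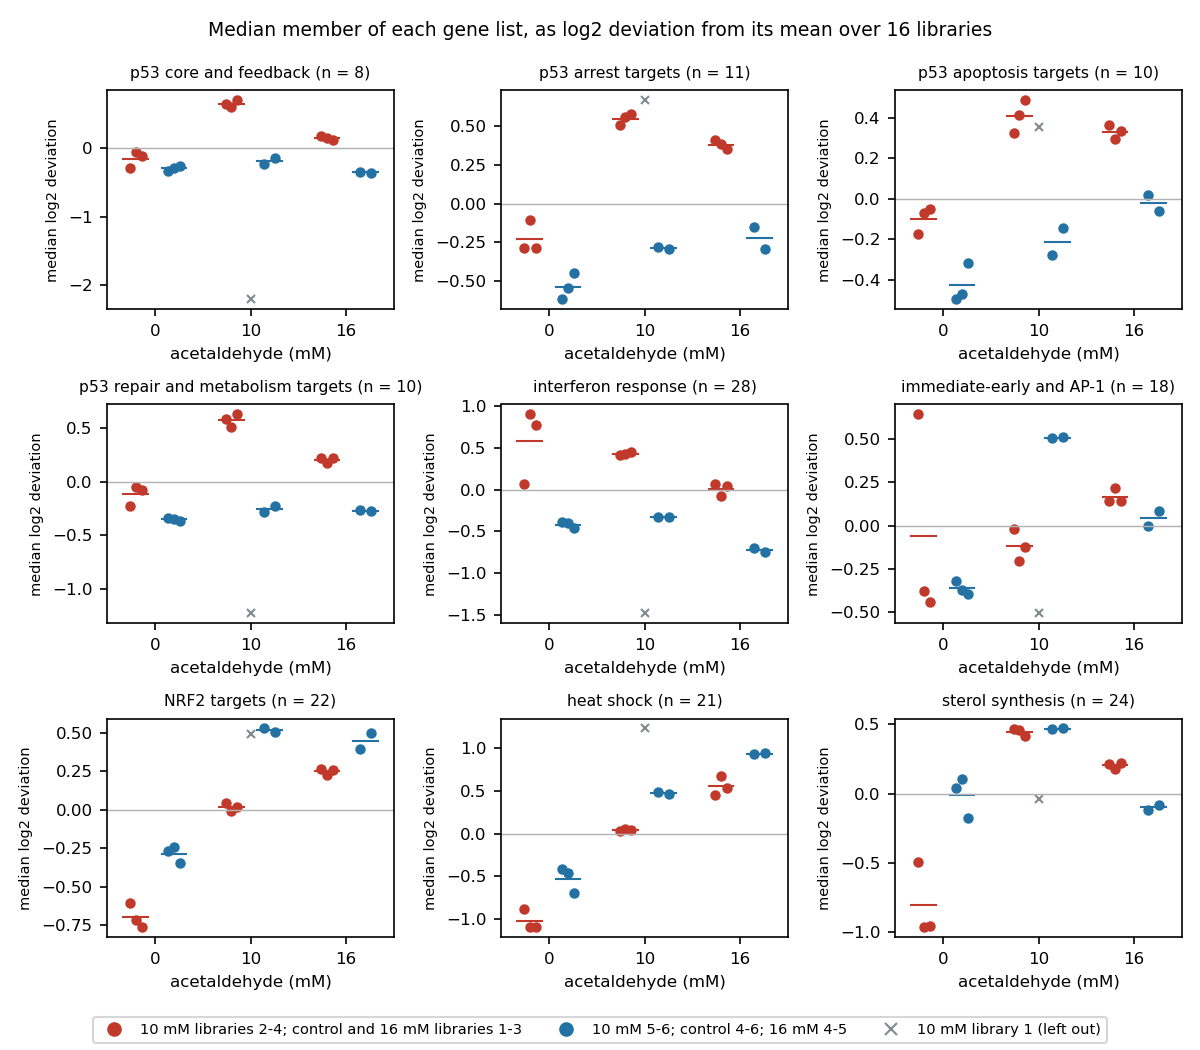
Each panel gives, for 1 gene list, the median over members of the log2(FPKM + 0.1) deviation from the gene's mean over 16 libraries (10 mM library 1 not in the mean), against acetaldehyde concentration; points are libraries, bars set means, and the cross is 10 mM library 1. Of the 16 libraries, 10 mM libraries 2 to 4 are highest for the p53 core, arrest and repair lists, the interferon list separates at all 3 concentrations, and the heat shock and NRF2 lists are higher at 10 and 16 mM than at 0 mM.

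Immediate-early genes had the opposite order. Of 18 described genes 11 were apart and higher in libraries 5 and 6 and 1, ATF3, was higher in libraries 2 to 4, beside 0.882% and 5.50% of all genes. The median was -0.65 at 10 mM, 0.53 in control and 0.07 at 16 mM. In control 7 were apart, all higher in libraries 1 to 3, as were 4.57% of all genes. Control library 1 alone was high in several (FOSB, FOS, JUN, EGR1 and NR4A1 below). As a log2 deviation from its mean over 16 libraries, the median member stood at 0.64 in control library 1, at -0.38 and -0.44 in control libraries 2 and 3, and at -0.40 to -0.32 in control libraries 4 to 6. Without library 1 the control sets thus overlapped.

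FOSB (chromosome 19, 45467996 to 45475181), which encodes an AP-1 subunit, stood at 10.4, 4.94 and 4.77 FPKM in libraries 2 to 4 and at 47.6 and 43.6 FPKM in libraries 5 and 6, 6.81-fold higher in the latter. Control library 1 stood at 31.2 FPKM and control libraries 2 to 6 at 7.68 to 8.78 FPKM, and 16 mM libraries 1 to 5 at 7.79, 8.60, 7.21, 13.3 and 14.1 FPKM. FOS (chromosome 14, 75278828 to 75282230), its partner family member, stood at 78.3, 52.5 and 61.7 FPKM against 219 and 201 FPKM. Control library 1 stood at 231 FPKM, and no other control or 16 mM library passed 78.9 FPKM. The 3 libraries high in both genes are thus 10 mM libraries 5 and 6 and control library 1. Neither gene passed the test at 10 mM (FOSB 0.95 ± 0.65, edgeR adjusted p = 0.25, and FOS 0.39 ± 0.47, edgeR adjusted p = 0.519).

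JUN, which pairs with FOS proteins in AP-1, stood at 94.3, 85.8 and 86.1 FPKM against 206 and 199.9 FPKM. NR4A1, a nuclear receptor induced by growth signals, stood at 24.5, 15.1 and 15.9 FPKM against 47.2 and 40.7 FPKM. EGR1, whose promoter with its CArG boxes is shown above, stood at 259, 223 and 238 FPKM against 394 and 369 FPKM. Control library 1 was at 202, 34.1 and 465 FPKM in these 3 genes, above the other controls. IER2, ZFP36, KLF6, KLF2, IER3 and FOSL1 were also apart, by -0.97 to -0.61. ATF3, a stress-induced factor of the ATF family and the exception, stood at 30.1, 28.8 and 31.8 FPKM against 15.6 and 14.9 FPKM, and its control sets differed the same way by 0.75. ATF3 rose against control by 0.98 ± 0.23 at 10 mM (edgeR adjusted p = 0.00391) and by 1.58 ± 0.19 at 16 mM (edgeR adjusted p = 1.29e-05).

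Genes induced by ERK, the kinase of the growth factor cascade that the study's title names, were mostly not apart. Of 19 described genes 5 were apart, all higher in libraries 5 and 6, beside 0.882% of all genes, among them EGR1, IER3 and FOSL1 of the list above. CCND1, which encodes cyclin D1, stood at 15.7, 17.8 and 17.5 FPKM against 28.8 and 31.2 FPKM. Its control sets (7.75 to 8.18 and 11.5 to 14.4 FPKM) and 16 mM sets (24.6 to 27.3 and 49.9 and 49.7 FPKM) had the same order, and it rose by 1.11 ± 0.24 at 10 mM (edgeR adjusted p = 0.00257). MYC stood at 9.25 to 10.3 FPKM against 17.2 and 16.1 FPKM, and its controls were as far apart, at 9.40 to 14.3 and 18.4 to 20.8 FPKM. The feedback inhibitors DUSP6 (-0.45), DUSP4 (-0.30), SPRY2 (-0.21) and SPRY4 (0.35) were not apart.

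Most NRF2 targets and heat shock genes rose over control across the 5 libraries, and the minority that were apart were all higher in libraries 5 and 6. Of 22 described NRF2 targets 7 were apart, all higher in libraries 5 and 6, beside 0.882% of all genes, with a median of -0.44. Over the 5 libraries 18 of 24 rose against control and 3 fell, beside 23.1% and 24.1% of all genes. HMOX1 (chromosome 22, 35381096 to 35394207), the haem oxygenase that degrades haem, stood at 21.1, 20.3 and 21.6 FPKM in libraries 2 to 4 and at 68.2 and 72.8 FPKM in libraries 5 and 6. The controls lay between 14.7 and 16.6 FPKM in all 6 libraries, and 16 mM libraries 1 to 5 stood at 41.7, 51.4, 41.9, 100.5 and 105.9 FPKM. HMOX1 was thus 1.42-fold above control in libraries 2 to 4 and 4.41-fold in libraries 5 and 6, with control sets that differed by only -0.11 on the log2 scale. It rose by 1.43 ± 0.36 at 10 mM (edgeR adjusted p = 0.00622) and by 2.19 ± 0.27 at 16 mM (edgeR adjusted p = 1.79e-05).

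OSGIN1, an oxidative stress growth inhibitor, stood at 2.47 to 2.73 FPKM against 5.58 and 6.49 FPKM, with at most 1.07 FPKM in control. TXNRD1, with the antioxidant element shown above, stood at 142 to 153 FPKM against 289 and 298 FPKM, and its control sets also differed, at 81.7 to 91.5 and 131 to 141 FPKM. SRXN1, the sulfiredoxin gene, stood at 46.4 to 47.8 FPKM against 79.7 and 82.9 FPKM. In each of these 3 genes all 5 libraries lay above every control library and libraries 5 and 6 lay highest. GCLM, NQO1 and GCLC, of glutathione synthesis and quinone reduction, were apart by -0.78, -0.77 and -0.59.

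Of 21 described heat shock genes 5 were apart, all higher in libraries 5 and 6, beside 0.882% of all genes, or 8 on TMM-scaled CPM, and the median was -0.45. The medians in control and at 16 mM were -0.50 and -0.45, so the order of the sets was the same at each dose. HSPA8, the constitutive HSP70 chaperone, stood at 565 to 590 FPKM against 998 and 951 FPKM. Its controls lay at 78.4 to 108 FPKM in libraries 1 to 3 and at 271 to 412 FPKM in libraries 4 to 6. HSPA8 was therefore 6.51-fold higher in libraries 2 to 4 than in control libraries 1 to 3. In libraries 5 and 6 it was 2.81-fold higher than in control libraries 4 to 6, the reverse of the order of the levels. This reversal rests on that pairing of sets, which no label gives. HSP90AA1, the inducible cytosolic HSP90, stood at 765 to 775 FPKM against 1329 and 1287 FPKM, and HSPH1, a co-chaperone of HSP70, at 84.8 to 87.0 FPKM against 145 and 145 FPKM. HSPE1, the HSP10 co-chaperonin, was at 340.0 to 354 FPKM against 603 and 540.3 FPKM. By edgeR's test 16 of 21 heat shock genes rose and 0 fell at 10 mM, beside 23.1% and 24.1% of all genes. On the log2 scale the median gene was higher by 1.07 in libraries 2 to 4 than in control libraries 1 to 3. In libraries 5 and 6 it was higher by 1.04 than in control libraries 4 to 6. The NRF2 targets showed 0.74 and 0.70 in the same way, the p53 core genes 0.82 and 0.11, and the immediate-early genes -0.10 and 1.08. The -0.10 includes control library 1. As a deviation from its mean over 16 libraries, the median immediate-early gene stood there at 0.64, and at -0.38 and -0.44 in control libraries 2 and 3. In 10 mM libraries 2 to 4 it stood at -0.02, -0.21 and -0.12, above control libraries 2 and 3.

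**Figure D4:**
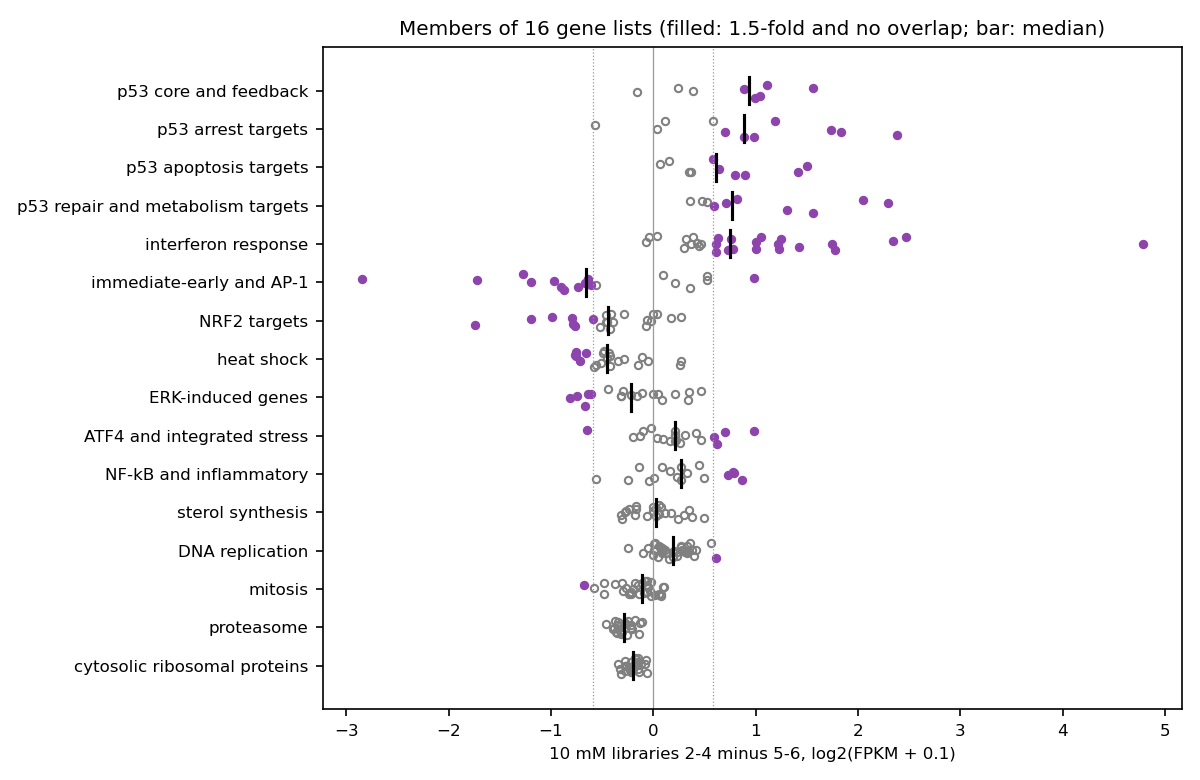
Each point is a described member of 1 of 16 gene lists, placed by the log2 difference of 10 mM libraries 2 to 4 minus 5 and 6; filled points differ by at least 1.5-fold without overlap of the libraries, bars are medians and dotted lines mark 1.5-fold. The p53 and interferon lists lie to the right, and the immediate-early, NRF2 and heat shock lists to the left. The medians of the sterol synthesis, DNA replication, mitosis, proteasome and ribosomal protein lists are 0.03, 0.20, -0.11, -0.29 and -0.20.

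Several genes with the largest differences belong to none of these programmes. ACTA2, smooth muscle actin, stood at 9.02, 8.03 and 8.01 FPKM against 1.66 and 1.57 FPKM. SAA1, an acute-phase apolipoprotein, stood at 184, 171 and 171 FPKM against 48.7 and 41.4 FPKM, with controls of 90.3 to 157 FPKM between them. KCNMA1, the BK potassium channel, lay the other way at 1.16, 0.89 and 1.36 FPKM against 6.05 and 8.63 FPKM, and at 16 mM at 1.88 to 3.24 against 13.3 and 14.8 FPKM. All 3 had the same order at 16 mM as at 10 mM.

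CD44, the hyaluronan receptor, stood at 4.56, 4.22 and 5.15 FPKM against 11.6 and 13.7 FPKM, with differences of -1.21 in control and -1.34 at 16 mM beside -1.42 at 10 mM. S100A2, a calcium-binding protein of stratified epithelium, stood at 25.9 to 30.3 FPKM against 72.4 and 67.2 FPKM, and DKK1, a Wnt inhibitor, at 18.4 to 19.6 FPKM against 37.0 and 45.4 FPKM. For CD44, S100A2 and DKK1 the order of the sets was that of the control libraries. CCN2, a matrix protein induced by TGF-beta and YAP, stood at 197, 162 and 157 FPKM against 363 and 378 FPKM, and had the opposite order at 16 mM (0.51). TRIM16L stood at 14.1 to 15.2 FPKM against 36.7 and 36.1 FPKM, and SULT1A3 at 38.5, 16.8 and 28.2 FPKM against 3.54 and 13.0 FPKM. TRIM16L and SULT1A3 have near-identical copies, so the division of reads between copies is uncertain. LOC102724788 stood at 7.04 to 7.66 FPKM against 1.68 and 1.77 FPKM and is listed on a sequence outside the main chromosomes.

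Several other lists held few or no genes that were apart between the 10 mM sets, beside 6.39% of all genes. At these list sizes such counts lie near that share and are no result about the lists. Fanconi and homologous recombination genes, which repair DNA crosslinks, held 0 of 24 apart, with a median of 0.18. The same held for the 25 proteasome genes (-0.29), the 28 cytosolic ribosomal protein genes (-0.20) and the 24 oxidative phosphorylation genes (-0.08). Of 37 DNA replication genes 1, E2F1, and of 31 mitosis genes 1, CCNB1, were apart, in opposite directions (0.61 and -0.68). The 24 sterol synthesis genes had a median of 0.03 at 10 mM with 0 apart, whereas in control 17 were apart and lower in libraries 1 to 3, where 2.85% of all genes were (median -1.01). Sterol genes were thus lower in the lower-numbered control libraries, by far more than they differed between the 10 mM sets. Of these 24, 17 rose and 0 fell against control at 10 mM by edgeR's test, beside 23.1% and 24.1% of all genes, and 11 rose with library 1 included.

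The genes whose pattern was most like that of CDKN1A over 16 libraries, all but 10 mM library 1, were MDM2 (Pearson r of log2(FPKM + 0.1) 0.987), SESN1 (0.984), RRM2B (0.971), PHLDA3 (0.968), GREB1 (0.957), BTG2 (0.949), CYTH1 (0.947) and TRIAP1 (0.945). These points share dose, and the sets of libraries by number, so no p is given. GREB1, known as an oestrogen-regulated gene, stood at 1.58, 1.86 and 1.66 FPKM against 0.80 and 0.78 FPKM, and CYTH1, an ARF exchange factor, at 34.1, 36.7 and 35.4 FPKM against 28.5 and 27.9 FPKM. Both were lower in libraries 5 and 6 without overlap, CYTH1 by less than 1.5-fold.

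Cell type markers were read in the same libraries. The keratins of the line, KRT7, KRT8, KRT18 and KRT17, were abundant in all 5 libraries, and the summed level of 9 epithelial markers was 1116 to 1169 FPKM in libraries 2 to 4 and 1285 to 1358 FPKM in libraries 5 and 6. KRT19 was at 0, and EPCAM, CDH1, KRT5 and TP63 reached at most 0.07 FPKM, so defining markers of intact bronchial epithelium were absent or nearly so. Of the immune markers PTPRC was at 0 and CD3E reached at most 0.06 FPKM, and of the endothelial markers CDH5 and ERG were at 0 in all 5. The summed level of the 6 immune markers was 8.07 to 10.1 FPKM in libraries 2 to 4 and 8.69 to 9.23 FPKM in libraries 5 and 6, nearly all of it CD68. The 7 endothelial markers summed to 23.1 to 26.2 FPKM against 14.3 to 17.6 FPKM, nearly all of it EGFL7. The part of these marker levels in the results was not tested. The 9 fibroblast markers in the table, of which 4 reached 1 FPKM, summed to 35.3 to 36.0 FPKM in libraries 2 to 4 and 31.3 to 32.0 FPKM in libraries 5 and 6. Of the 4, PDGFRB stood at 7.65 to 7.89 FPKM against 5.07 and 4.67 FPKM, COL1A1 at 7.32 to 7.75 FPKM against 5.57 and 5.32 FPKM, and MFAP4 at 1.35 to 1.47 FPKM against 0.76 and 0.51 FPKM. THY1, the most abundant, lay the other way at 17.4 to 18.1 FPKM against 19.7 and 19.8 FPKM. COL1A2 and COL3A1 were at or near 0.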

How the data were processed

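Poly-A RNA of 17 BEAS-2B libraries was measured, grouped by title. Per the submitters' processing notes the build was GRCh38.p13, and the tools listed, without roles, include RSEM 1.3.1, Bowtie2 2.3.4.3, HISAT and, for DESeq2, version 1.4.5. The authors deposited gene read counts that are 13.1% not whole, so they are treated as estimated counts and were rounded here. The deposited FPKM values, scaled by the authors for transcript length and depth, gave levels and set differences, and the deposited TPM values served as an alternative scale. The deposited table holds 16884 genes, all protein-coding.

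Differences between 10 mM libraries 2 to 4 and 5 and 6 are means of log2(FPKM + 0.1), with no test. Dose comparisons used edgeR 4.0.16 (R 4.3.3; filterByExpr, TMM, glmQLFit and glmQLFTest, two-sided, Benjamini-Hochberg over all tested genes, called at an adjusted p under 0.05) on 12437 genes for 10 mM libraries 2 to 6 and 12410 for 16 mM, each with only the 2 groups compared. The SE was computed as |log2 change| over the root of the F statistic. The scripts were first tested on simulated counts.

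The members, the 36 gene lists and the tests were chosen with earlier results of these data known. Named genes were the 12 with the largest difference in each direction (at least 5 FPKM in the higher set, no overlap), up to 4 members per list that were apart, all p53 list members, CDKN1A, MDM2 and BTG2, and the 8 genes most like CDKN1A. The text names part of these. Other members of the interferon, immediate-early, NRF2, ERK and marker lists were named after their values were seen. Promoters (9390 of 11339 described genes matched) come from RefSeq on GRCh38.p14 and gene coordinates from the deposited table. Mitochondrial genome transcripts were not analysed here. Some genes are not reported here. Alternatives were DESeq2 1.42.0 and its size factors, no filter, a term for the library sets, a block for the replicate number, each library left out, library 1 included, TMM-scaled CPM, a pseudocount of 1, other FPKM limits and 2-fold, and, added after seeing the data, TPM and centring on the median gene.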

Additional observations from a re-analysis of the deposited data

Results flagged for a closer look

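Each of 63 genes was checked for a library lying far from the rest of its dose, in 189 combinations of gene and group, and 8 were flagged, where chance flags about 5% of groups. Of these, 6 were control library 1, which was the highest control for FOSB (31.2 FPKM, next 8.78), FOS (231.03 FPKM, next 78.9), JUN (201.99 FPKM, next 116), EGR1 (465.47 FPKM, next 283), NR4A1 (34.07 FPKM, next 18.7) and CCN2 (418.68 FPKM, next 272). All 6 are among the genes that were higher in 10 mM libraries 5 and 6. The other 2 were 16 mM library 3 for ZMAT3 (7.14 FPKM, next 6.49) and 16 mM library 5 for JUN (121.94 FPKM, next 108).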

How the results depend on the processing

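The number of genes apart between the 10 mM sets (724) was 432 with a pseudocount of 1 FPKM, 1291 without a filter on low FPKM, 355 at 5 FPKM or more and 150 at 2-fold, where the limit itself differs, and 719 to 780 with any 1 of the 5 libraries left out. Of the genes apart, 80.7% had the same sign between the control sets and 93.4% between the 16 mM sets. For control this was 75.5% on TMM-scaled CPM, 76.5% without the filter, 77.2% at 5 FPKM or more, 86% at 2-fold and 77.4% with centring, and 77.1% to 84.1% with 1 library left out. For 16 mM it was 87.8% without the filter and 95.7% on TPM, and 92.1% to 94.2% with 1 library left out. The test of 10 mM against control called 5873 genes without library 1 and 1530 with it, and 5309 to 5835 with another library left out. The test of 16 mM called 7979 genes and 7530 to 7857 with 1 left out. The labels give the doses the same replicate numbers, but same-numbered libraries did not deviate together in every case (r from -0.05 to 0.26 at 16 mM and from -0.27 to 0.33 at 10 mM, and not every library correlated best with its own number). The replicate block gave 7899 calls at 16 mM and 5352 at 10 mM, and under it the call of BTG2 at 16 mM was lost (edgeR adjusted p = 0.0510). A term for the sets by number gave 9099 and 7487 calls. No called result changed direction, while some changes that passed no test, such as that of DDB2 at 10 mM (-0.21 to 0.15), took either sign. Over the named genes, 34 of the repeated tests at 16 mM and 48 at 10 mM lost a call, and 17 and 19 gained one. With library 1 included 18 of the 48 were lost, and the cause was not tested. The 3 and 2 libraries of the sets limit every description, and genes near 1 FPKM are the least precise.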

Other observations

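Of 24 described ribosome biogenesis genes 3 were apart, all higher in libraries 5 and 6, beside 0.882% of all genes, with a list median of -0.29 beside 0.24 in control. NOP16, a nucleolar protein, stood at 37.4, 38.5 and 39.2 FPKM in libraries 2 to 4 and at 67.8 and 60.5 FPKM in libraries 5 and 6, and RRS1, a ribosome assembly factor, at 7.71 to 9.43 FPKM against 15.2 and 15.0 FPKM. Of 14 described circadian clock genes 1 was apart and higher in libraries 2 to 4, a share near the 5.50% of all genes. This gene, ARNTL, the clock factor BMAL1, stood at 9.07 to 9.89 FPKM against 4.61 and 3.31 FPKM, all below the controls of 10.49 to 17.95 FPKM, and fell by 1.01 on the log2 scale at 10 mM (SE 0.24, edgeR adjusted p = 0.00438). Of 17 described NF-kB and inflammatory genes 4 were apart and higher in libraries 2 to 4, beside 5.50% of all genes, among them RELB at 8.99 to 10.4 FPKM against 5.72 and 5.47 FPKM and IL6 at 4.27 to 5.26 FPKM against 2.14 and 2.85 FPKM.

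The median genomic span was 33.2 kb for the 624 genes higher in libraries 2 to 4, 13.1 kb for the 100 higher in libraries 5 and 6 and 38.0 kb for all described genes. Spans over 400 kb made up 11.2%, 8.00% and 7.06% of them.

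Library 1 of the 10 mM group, left out throughout, belonged to neither set. It stood at 182 FPKM for CDKN1A, between the sets, but at 3.16 FPKM for MDM2 and 4.29 FPKM for BTG2, below both and below every control. HMOX1 was at 1029 FPKM there and MT2A, a metallothionein, at 35324 FPKM, above any other library.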
